A study of Mus musculus with 2 samples.

Results

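Open chromatin at 43 genes of glucose and fatty acid metabolism was described in cardiac progenitor cells (CPCs) derived from mouse embryonic stem cells. The genes were chosen by their place in metabolism, with earlier results of these data known. They were 26 glycolytic genes (glucose transporters, glycolytic enzymes, Pfkfb enzymes and lactate genes) and 10 fatty acid genes (uptake, carnitine shuttle and beta oxidation). To these came 4 genes of the pyruvate dehydrogenase gate and 3 regulators. Peaks were taken as distinct intervals that carried the symbol of the gene. The 43 genes held 69 of 26232 distinct peaks (0.263%), and 40 of them had at least 1 peak, beside 62.5% of all protein coding genes.

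ATAC-Seq, which reads out where the Tn5 transposase can cut and tag chromatin, was performed on 2 replicate samples of untreated CPCs at day 5 of directed differentiation. The cells were E14 Tg(Nkx2–5-EmGFP) mouse embryonic stem cells of passages 16-20, with C57BL/6 as the labelled strain, kept on feeder fibroblasts before differentiation with BMP4, Activin A, VEGF, bFGF and FGF10. The reporter follows Nkx2-5, a homeodomain factor of the early heart, but the cells used for ATAC-Seq were not described as sorted by it. Both samples carried the reporter and neither a knockdown, and Isl1 knockdown cells of the series are not analysed here.

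All values came from 1 list of peaks found in both replicates, which holds no score, no read count and no value for either replicate. Read depth and replicate error were therefore unknown, neither replicate could be left out and no test between groups of genes was run. Wilson 95% confidence intervals given with shares cover the counting of genes only, since genes are not replicates. Order statistic intervals given with medians likewise cover the counting of peaks only, and a gene can give several peaks. Lines may be missing from the list as it was analysed here, and a gene without a peak was not thereby measured as closed. Of marker genes, 8 of 9 cardiac progenitor, 5 of 6 pluripotency, 4 of 6 fibroblast and 3 of 4 endothelial genes had a peak, beside 62.5% of coding genes. A peak within 1 kb of the transcription start site (TSS) was found at 5, 4, 4 and 1 of them, beside 50% of coding genes. Hand2, Pou5f1, Col3a1, Postn and Tek were the markers without a peak. A peak is not expression, so these counts do not give the makeup of the cultures, whose part in the results was not tested.

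Glycolysis turns glucose into pyruvate in the cytosol, which is then reduced to lactate and exported or passed through pyruvate dehydrogenase into the mitochondrion. Fatty acids are bound and carried in the cytosol, moved into the mitochondrion by the carnitine shuttle and shortened there by beta oxidation. The embryonic heart relies largely on glucose and lactate, and the heart turns to fatty acids as its main fuel after birth. The question addressed was whether the glycolytic genes and the fatty acid genes differed in the number, position and width of their peaks well before that switch.

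The letters upstream of 5 start sites are shown because each of these promoters lay under a peak and held the core of the hypoxia response element (HRE), ACGTG, which is bound by HIF factors, or the E-box CACGTG, which contains the HRE core on both strands. The genes stand for glucose phosphorylation (Hk2), lactate formation (Ldha), the pyruvate gate (Pdk2), regulation (Hif1a) and fatty acid transport into the mitochondrion (Cpt1b). Each sequence is the 300 bp before the deposited TSS on the strand of the gene, from the mm9 genome, written 5′ to 3′. Capitals mark HRE cores on either strand and E-boxes, and at Ldha also the cyclic AMP response element (CRE) TGACGTCA. The windows are chr6:82724450-82724749 on the minus strand for Hk2, chr7:54100875-54101174 on the plus strand for Ldha, chr11:94902686-94902985 on the minus strand for Pdk2, chr12:75008554-75008853 on the plus strand for Hif1a and chr15:89256295-89256594 on the minus strand for Cpt1b.
Hk2: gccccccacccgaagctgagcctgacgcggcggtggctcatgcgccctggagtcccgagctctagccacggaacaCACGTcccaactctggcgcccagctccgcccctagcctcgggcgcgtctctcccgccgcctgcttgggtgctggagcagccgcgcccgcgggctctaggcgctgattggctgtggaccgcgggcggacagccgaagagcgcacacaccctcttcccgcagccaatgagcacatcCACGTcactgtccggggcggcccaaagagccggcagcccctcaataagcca
Ldha: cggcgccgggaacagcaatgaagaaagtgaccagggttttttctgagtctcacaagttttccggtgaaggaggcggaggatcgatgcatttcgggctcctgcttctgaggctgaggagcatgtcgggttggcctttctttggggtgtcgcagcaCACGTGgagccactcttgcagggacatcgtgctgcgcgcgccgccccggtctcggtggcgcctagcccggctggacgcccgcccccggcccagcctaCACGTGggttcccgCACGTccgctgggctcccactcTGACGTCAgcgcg
Pdk2: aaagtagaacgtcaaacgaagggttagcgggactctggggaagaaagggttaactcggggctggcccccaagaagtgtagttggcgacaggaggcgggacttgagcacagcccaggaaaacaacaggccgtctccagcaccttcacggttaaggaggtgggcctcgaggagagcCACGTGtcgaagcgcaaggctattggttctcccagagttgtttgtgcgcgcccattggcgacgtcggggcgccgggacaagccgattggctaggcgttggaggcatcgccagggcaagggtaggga
Hif1a: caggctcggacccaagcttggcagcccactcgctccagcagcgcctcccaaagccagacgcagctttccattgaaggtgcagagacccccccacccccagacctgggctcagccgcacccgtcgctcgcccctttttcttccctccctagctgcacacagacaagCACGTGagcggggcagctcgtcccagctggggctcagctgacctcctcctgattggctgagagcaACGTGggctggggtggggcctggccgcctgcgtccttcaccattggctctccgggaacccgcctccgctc
Cpt1b: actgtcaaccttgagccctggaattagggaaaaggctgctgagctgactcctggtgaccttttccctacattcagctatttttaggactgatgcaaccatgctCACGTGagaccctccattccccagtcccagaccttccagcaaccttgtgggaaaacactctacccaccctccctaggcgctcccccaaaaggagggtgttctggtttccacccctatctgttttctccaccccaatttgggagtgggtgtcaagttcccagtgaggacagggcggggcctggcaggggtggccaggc

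The E-box at Ldha stood at −146 bp and again at −49 bp from the TSS, with a further HRE core at −35 bp and the CRE at −13 bp. This gave Ldha 3 separate HRE sites, the most among the 37 genes with a promoter peak. Hk2 had HRE cores at −225 and −51 bp, and Hif1a had an E-box at −135 bp and an HRE core at −70 bp. Pdk2 and Cpt1b had 1 E-box each, at −126 and −197 bp. The window of Cpt1b was poor in CpG, with an observed over expected CpG ratio of 0.129, against 0.916 for Ldha.

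The bases between the TSSs of Hadha and Hadhb are shown because a single peak covered both starts but was assigned to Hadhb alone. These genes encode the alpha and beta subunits of the mitochondrial trifunctional protein, which carries out the last steps of beta oxidation of long chain fatty acids. They lie head to head, with annotated starts 86 bp apart. The bases between them, chr5:30481703-30481787, are given 5′ to 3′ on the plus strand of mm9 with GC boxes (GGGCGG) in capitals.
Hadhb: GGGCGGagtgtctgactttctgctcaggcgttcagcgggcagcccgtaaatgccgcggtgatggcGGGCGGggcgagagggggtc

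The peak of 1421 bp at chr5:30480979-30482399 covered both TSSs, so the count of 0 peaks for Hadha came from the assignment of each peak to 1 symbol. Fabp3, encoding the heart type fatty acid binding protein, also shared its promoter peak, with the start of the annotated gene Gm10570 79 bp away on the opposite strand.

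The glycolytic genes had more peaks per gene than the fatty acid genes, 48 peaks over 26 genes (mean 1.85) against 10 peaks over 10 genes (mean 1.00). Over all 21896 protein coding genes the mean was 1.07. The median was 1 peak per gene in both groups and over all coding genes, and the ranges overlapped, from 0 to 6 in the glycolytic genes and from 0 to 2 in the fatty acid genes. The difference in means was carried by genes with several peaks. At least 3 peaks were assigned to 6 of 26 glycolytic genes (23.1%, 11 to 42.1%) and to 0 of 10 fatty acid genes (0%, up to 27.8%), beside 10.3% of coding genes. Pkm was among the 6 only through a peak that covered the start of Gramd2, so its place there is uncertain. The intervals of the groups overlapped. In other genes of the same pathways, listed further on, the order of the means was the opposite, 1.11 peaks per gene for 18 glycolytic and 1.38 for 32 fatty acid genes.

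At least 1 peak was assigned to 25 of 26 glycolytic genes (96.2%, 81.1 to 99.3%) and to 8 of 10 fatty acid genes (80%, 49.0 to 94.3%), beside 62.5% of coding genes. A peak with its midpoint within 1 kb of the assigned TSS, called a promoter peak below, was found at 23 glycolytic genes (88.5%, 71.0 to 96.0%) and 7 fatty acid genes (70.0%, 39.7 to 89.2%), beside 50% of coding genes. With a limit of 500 bp the shares were 76.9 and 70%, so the difference fell from 18.5 to 6.92 percentage points. At 1 kb the glycolytic interval lay above both shares over coding genes, whereas the fatty acid interval included them. The intervals of the groups overlapped each other for both measures. In other genes of the same pathways, listed further on, the order of both shares was the opposite. Nuclear genes of oxidative phosphorylation and cytosolic ribosomal protein genes were also counted, and most but not all of these are used in most cells. They had a peak at 76.2% of 84 and 82.9% of 76 genes and a promoter peak at 69.0 and 72.4%. The ribosomal shares lay inside the intervals of both metabolic groups. The oxidative phosphorylation shares lay inside the fatty acid intervals and below the glycolytic ones, but their own intervals (66.1 to 84.0% and 58.5 to 77.9%) overlapped the glycolytic ones.

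**Figure D1:**
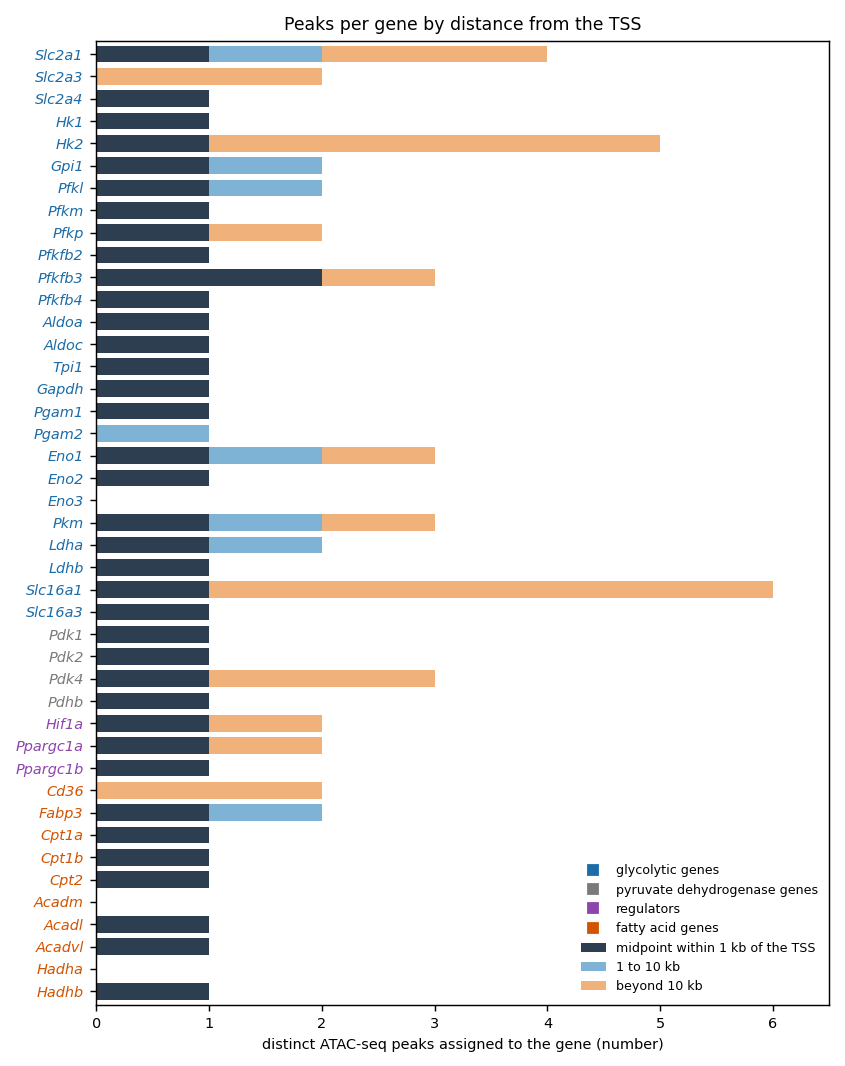
Number of distinct ATAC-Seq peaks assigned to each of the 43 genes (horizontal axis), with bars divided by the distance of the peak midpoint from the TSS and gene names coloured by group. Most genes have a promoter peak and nothing else, Slc16a1 and Hk2 have the most peaks, and Eno3, Acadm and Hadha have none.

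Glucose enters the cell through transporters of the Slc2a family, and all 3 listed here had a peak. Slc2a1, the transporter of most embryonic cells, had 4 peaks. Its promoter peak at chr4:118780729-118782351 was 1623 bp wide, and others lay at −13468 bp (chr4:118767512-118768253), −2830 bp (chr4:118777946-118779096) and 29631 bp (chr4:118810394-118811570), where negative distances are upstream. Slc2a4, the insulin responsive transporter of muscle and fat, had a promoter peak alone, at −156 bp and 2252 bp wide. Slc2a3, a transporter of high affinity, had 2 peaks and neither was a promoter peak by the deposited distance. They were at −22251 bp (chr6:122714309-122715721) and −30158 bp (chr6:122722615-122723228), both within introns of a longer annotated Slc2a3 transcript. The start of that transcript lay under a peak of 1350 bp at chr6:122751086-122752435, which was assigned to Foxj2.

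Hexokinases trap glucose as its phosphate. Hk2, the inducible form of muscle and of growing cells, had 5 peaks, and Hk1, the widely used form, had 1. The promoter peak of Hk2 at chr6:82722573-82725159 was 2587 bp wide, with its midpoint 583 bp downstream of the TSS. The others lay at 10188 bp (chr6:82713887-82714635) and 37050 bp (chr6:82686900-82687897) within introns of Hk2, and at 50978 bp (chr6:82673062-82673879) and 59970 bp (chr6:82664209-82664748) past its end. All 4 were narrower than 1 kb, from 540 to 998 bp. The Hk1 promoter peak lay 215 bp from the deposited TSS, while the 5′-most annotated start of Hk1 had no peak within 33049 bp.

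Gpi1, which converts glucose phosphate to fructose phosphate, and Pfkl, the liver form of the phosphofructokinase that commits sugar to glycolysis, each had a promoter peak and a second peak upstream, at −3751 and −7160 bp. Pfkm, the muscle form, had a promoter peak of 803 bp (chr15:97938623-97939425), the narrowest of the glycolytic genes. Pfkp, the platelet form, had a promoter peak of 971 bp, and a peak of 680 bp at −249161 bp, the farthest from the TSS among the 43 genes. The Pfkfb enzymes make and remove fructose 2,6-bisphosphate, the strongest activator of phosphofructokinase. Pfkfb3 had 3 peaks, of which 2 lay at different deposited start sites, 314 bp (chr2:11422458-11424349) and 180 bp (chr2:11474802-11475951) from the TSS each was measured from. The third lay at 18228 bp (chr2:11456752-11457905). The start from which the peaks at 180 and 18228 bp were measured lay 51828 bp from the nearest annotated coding start of Pfkfb3. Pfkfb2 and Pfkfb4 had a promoter peak each, at −36 and 64 bp.

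Of the 10 genes that encode the steps from fructose bisphosphate to pyruvate, 8 had a promoter peak. Gapdh, encoding glyceraldehyde phosphate dehydrogenase, had the widest promoter peak of the 43 genes, 3577 bp at chr6:125114303-125117879, and 0.63% of coding promoter peaks were wider. Aldoa and Aldoc, aldolases of muscle and of brain, Tpi1, the triose phosphate isomerase, and Pgam1, the phosphoglycerate mutase of most tissues, had a promoter peak alone. Pgam2, the mutase of muscle, had 1 peak at −5198 bp (chr11:5708460-5709535) and none at its start. Of the 32 bp words in that peak 83.2% occurred more than once in the genome, compared with 2.75% over the 69 peaks together, so the placing of its reads is uncertain.

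The enolase genes differed most within this stretch. Eno1, the enolase of most cells, had 3 peaks, at −182 bp (chr4:149610347-149611902), −6134 bp (chr4:149604719-149605626) and −16305 bp (chr4:149594575-149595429). Eno2, the neuronal form, had a peak of 2542 bp with its midpoint 995 bp from the TSS, just inside the limit of 1 kb. Eno3, the muscle form, had no peak of its own. Its 5′-most start lay inside the edge of a 4495 bp peak at chr11:70466500-70470994, assigned to Pfn1, with its midpoint at −1957 bp. Pkm, the pyruvate kinase of embryonic and muscle cells, had 3 peaks, at 328 bp (chr9:59503464-59505544), in an intron at 3568 bp (chr9:59507398-59508089) and at 23694 bp (chr9:59527025-59528715). The last of these covered the start of Gramd2, so its assignment to Pkm is uncertain.

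All 4 genes of lactate handling had a promoter peak. Ldha and Ldhb encode the subunits of lactate dehydrogenase. Ldha had a promoter peak of 1459 bp at −145 bp and a second peak of 2000 bp at −6974 bp, and Ldhb had a promoter peak of 1508 bp. Slc16a1, the lactate transporter of most cells, had 6 peaks, the most of the 43 genes, a number reached or passed by 1.23% of coding genes. They stood at −39019 bp (chr3:104403167-104403970), 102 bp (chr3:104441767-104443613), 31788 bp (chr3:104473840-104474912), 36472 bp (chr3:104478031-104480088), 44533 bp (chr3:104486821-104487420) and 62320 bp (chr3:104504522-104505294). The 4 downstream peaks were intergenic, and in that at 31788 bp 39.4% of 32 bp words were repeated in the genome. Slc16a3, the lactate exporter of strongly glycolytic cells, had 1 peak of 3200 bp, the second widest promoter peak of the 43 genes.

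All 4 genes of the pyruvate gate had a promoter peak. Pdk1, Pdk2 and Pdk4 encode kinases that switch pyruvate dehydrogenase off, and Pdhb encodes a subunit of the dehydrogenase itself. Pdk2 had the widest peak among them, 2738 bp, whereas those of Pdk1 and Pdhb measured 1297 and 1614 bp. Pdk4, known to be induced by fasting and fatty acids, had 3 peaks, at −126 bp (chr6:5445790-5447020), 13706 bp (chr6:5432226-5432920) and 53506 bp (chr6:5392322-5393224). In the peak at 13706 bp, 24.8% of 32 bp words were repeated in the genome.

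The 3 regulators had a promoter peak each. Hif1a, encoding the oxygen regulated factor that drives glycolytic genes, had a promoter peak of 1776 bp and a peak of 883 bp at −129074 bp, in an intron of Prkch. Ppargc1a and Ppargc1b encode coactivators of mitochondrial and fatty acid oxidation genes. Their promoter peaks were the narrowest and the fifth widest of the 43 genes, 652 bp for Ppargc1a and 2727 bp for Ppargc1b. Ppargc1a had a further peak at 113954 bp, and its 5′-most annotated start, 13838 bp upstream of the midpoint of the promoter peak, was not covered.

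Fatty acid uptake was represented by Cd36, a fatty acid translocase of the cell surface, and Fabp3. Cd36 had 2 peaks and no promoter peak. These were narrow, 625 bp at 59025 bp (chr5:17282378-17283002) and 531 bp at 128593 bp (chr5:17212857-17213387), the latter in an intron of Sema3c. In the former, 22.9% of 32 bp words were repeated in the genome. Fabp3 had a promoter peak of 1985 bp and a second peak at −6272 bp. All 3 genes of the carnitine shuttle had a promoter peak and no other. Cpt1a, the carnitine palmitoyltransferase of liver and fetal heart, had the widest of the fatty acid genes, 2922 bp at chr19:3321398-3324319. Cpt1b, the muscle form that prevails in adult heart, had a peak of 1505 bp at 67 bp, and Cpt2, the transferase of the inner membrane, had the narrowest, 833 bp at chr4:107595828-107596660.

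Of the 5 genes of beta oxidation, 3 had a promoter peak, 1 shared such a peak and 1 had none. Acadl and Acadvl, dehydrogenases of long and very long chain fatty acids, had a peak at 244 and 205 bp, 1386 and 1021 bp wide. Hadhb and Hadha are described above. Acadm, encoding the medium chain dehydrogenase, had no peak at its start, and the nearest peak lay 22203 bp away at chr3:153584771-153585393 and was assigned to Rabggtb. The start of Acadm was 61.3% GC, and its CpG ratio (observed over expected) of 0.590 fell just under the limit of 0.6 used here for a CpG-rich start.

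**Figure D2:**
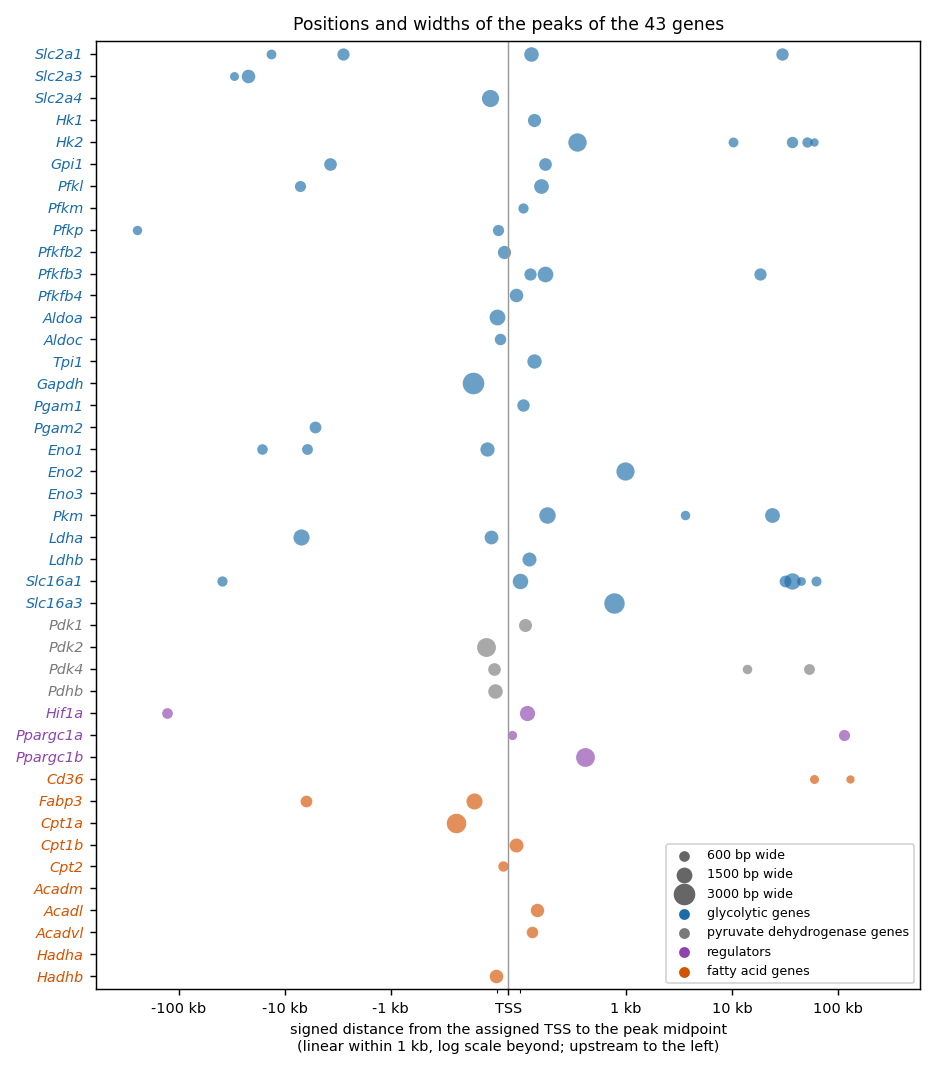
Signed distance from the TSS to the midpoint of each of the 69 peaks (horizontal axis in bp, linear within 1 kb and logarithmic beyond, upstream to the left), with the area of a point proportional to peak width. The promoter peaks form a column at the TSS, and distal peaks are spread over 8 glycolytic genes but 1 fatty acid gene, Cd36.

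The glycolytic peaks lay farther from the TSS by the median, 1912 bp (order statistic 95% interval 275 to 10188 bp) against 268 bp (67 to 59025 bp) for the fatty acid peaks and 1860 bp over coding genes. The intervals overlapped widely, and the distance depended on what was counted. The glycolytic median was 946 bp with every line counted, 583 bp with enzymes of the chain only and 299 bp with peaks wider than the list median, when the fatty acid median was 268, 155 and 244 bp. Of the glycolytic peaks, 24 of 48 were promoter peaks (50.0%) and 17 lay beyond 10 kb (35.4%), close to the 48.2 and 38.7% of all peaks of coding genes. Of the fatty acid peaks, 7 of 10 were promoter peaks and 2 lay beyond 10 kb. A peak beyond 10 kb was assigned to 8 glycolytic genes (30.8%, 16.5 to 50.0%) and to 1 fatty acid gene, beside 23.9% of coding genes. Those 8 were Slc2a1, Slc2a3, Hk2, Pfkp, Pfkfb3, Eno1, Pkm and Slc16a1. Pkm was among them only through its peak at 23694 bp, which covered the start of Gramd2. The distance between the start sites of the neighbouring protein coding genes on either side had medians of 60659 bp for the glycolytic and 55515 bp for the fatty acid genes.

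Widths of all peaks differed little between the groups, with medians of 1207 bp (1011 to 1508 bp) for the glycolytic and 1222 bp (625 to 1985 bp) for the fatty acid peaks, and 1101 bp over coding genes. Because peaks at start sites were wider than others, promoter peaks were compared on their own. Their medians were 1566 bp (1331 to 1923 bp, range 803 to 3577 bp) and 1421 bp (range 833 to 2922 bp), and the ranges overlapped. The median over coding genes was 1330 bp (quartiles 1077 and 1691 bp), and 18 of 24 glycolytic and 5 of 7 fatty acid promoter peaks were wider than it. A width over 2 kb was found for 6 of 24 glycolytic promoter peaks and for 1 of 7 fatty acid promoter peaks, beside 13.2% over coding genes. The genes of oxidative phosphorylation and of ribosomal proteins had promoter peaks with medians of 1200 bp (1113 to 1238 bp) and 1161 bp (1093 to 1231 bp). Both medians lay below the interval of the glycolytic genes but within the range of the fatty acid genes. The peaks are not replicates, and these differences were not tested. Peaks away from the promoter had medians of 931 bp for the glycolytic, 625 bp for the 3 fatty acid peaks (531 to 1057 bp) and 915 bp for all coding genes.

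**Figure D3:**
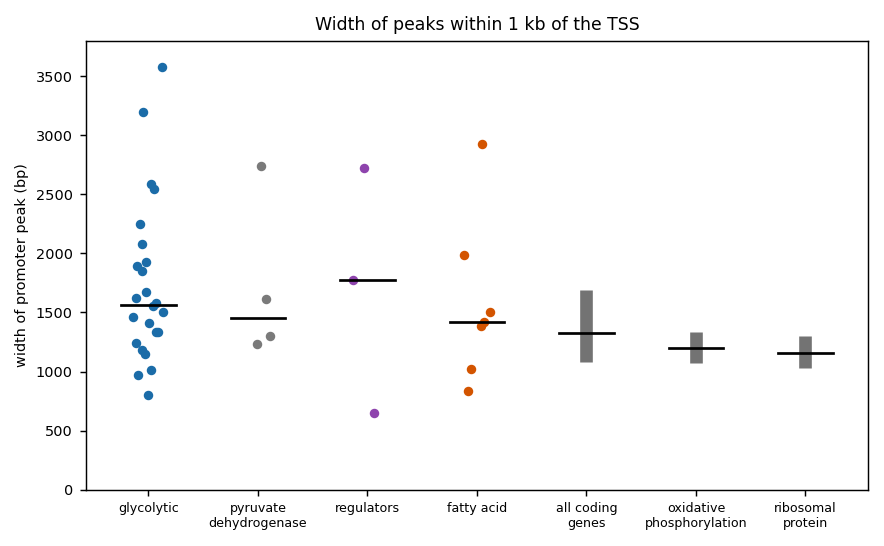
Width in bp of peaks within 1 kb of the TSS, with a point for each peak of the 4 metabolic groups and a grey bar from the lower to the upper quartile for the 3 reference sets, and a black line at each median. The glycolytic median of 1566 bp lies above the 1330 bp of all coding genes, and the points of the glycolytic and fatty acid genes overlap.

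Since a peak carries 1 symbol, coverage of start sites was also counted whatever the symbol. A peak overlapped the window reaching 500 bp up and downstream of the 5′-most annotated TSS at 22 of 26 glycolytic genes (84.6%, 66.5 to 93.8%) and 8 of 10 fatty acid genes (80%, 49.0 to 94.3%), beside 53.7% of coding windows. In this form the groups were closer, with Slc2a3, Pfkm, Eno3 and Hadha counted through peaks assigned to their neighbours. When any annotated TSS was allowed, 25 glycolytic and 8 fatty acid genes were covered, and the genes left without a peak at a start were Pgam2, Cd36 and Acadm.

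Coverage of start sites differed with their CpG content. A start was CpG-rich where its GC content reached 50% and its CpG ratio 0.6, which held for 11 of 26 glycolytic and 6 of 10 fatty acid genes. All 21 CpG-rich starts among the 43 genes were covered, beside 89.4% of 9930 CpG-rich starts of coding genes. Of the 22 CpG-poor starts, 14 were covered (63.6%), beside 24.8% of 12295. By group these were 11 of 15 glycolytic and 2 of 4 fatty acid genes. Class and coverage refer to the 5′-most start, which was not always the start under the promoter peak. Ldha and Hif1a counted as CpG-poor and uncovered, but their promoter peaks, at other starts, had CpG ratios of 0.673 and 0.886. Hk1, Pfkfb2 and Ppargc1a were also uncovered only at the 5′-most start, with ratios of 0.578, 0.480 and 0.197 in their promoter peaks. Covered CpG-poor starts included those of Gapdh, Aldoc, Tpi1, Ldhb, Slc2a4 and Cpt1b. Aldoa was counted too, but its peak reached only the edge of the window, 435 bp from the start, and had a CpG ratio of 0.635. Pfkm and Eno3 were counted through peaks assigned to Senp1 and Pfn1, and peaks of any symbol also counted over coding genes. Several covered starts fell just under the CpG limit, among them Slc2a4 (0.590), Pfkfb4 (0.587), Cpt2 (0.564) and Pfkp (0.559).

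**Figure D4:**
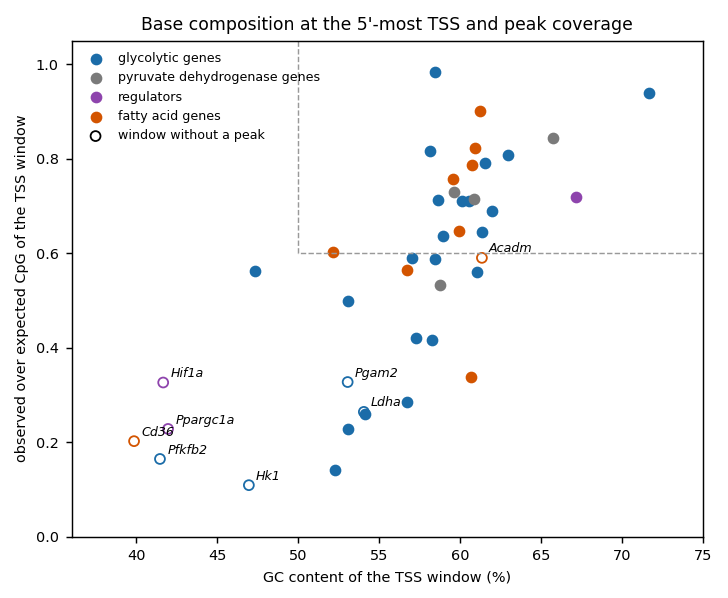
GC content in percent (horizontal axis) and observed over expected CpG ratio (vertical axis) of the window reaching 500 bp up and downstream of the 5′-most TSS of each of the 43 genes, filled where a peak overlapped that window and open where none did. Dashed lines bound CpG-rich starts, all 21 of which are filled, and the 8 open points are named.

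For 5 enzymes or transporters a form not particular to muscle, called the broad form here, was compared with a muscle form. The broad forms included Pfkl, the liver form, and Cpt1a, the form of liver and fetal heart. Peaks numbered 4 for Slc2a1 against 1 for Slc2a4, 2 for Pfkl against 1 for Pfkm, 3 for Eno1 against 0 for Eno3, 1 each for Pgam1 and Pgam2 and 1 each for Cpt1a and Cpt1b. The broad form had more peaks in 3 of 5 pairs and the same number in the other 2. In the single Pgam2 peak, at −5198 bp, 83.2% of 32 bp words were repeated in the genome. The 5′-most start windows of Eno3 and Pfkm were reached by peaks assigned to Pfn1 and Senp1, which are not in these counts. All 5 broad forms had a promoter peak, as did 3 of 5 muscle forms, Slc2a4, Pfkm and Cpt1b, beside 50% of coding genes. The hexokinases, which were not among these pairs, went the other way. The widely used Hk1 had 1 peak and Hk2, the form of muscle and of growing cells, had 5, so the tally depends on the pairs chosen.

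Upstream of 37 promoter peaks, in the 300 bp before the deposited TSS, the HRE core ACGTG on either strand was found at 17 genes (45.9%), beside 25.2% of 10822 such windows in the whole list. It was found at 10 of 23 glycolytic genes (43.5%), 2 of 7 fatty acid genes (28.6%), 3 of 4 genes of the pyruvate gate and 2 of 3 regulators. The core at Pfkfb3, at −60 bp, was counted from the deposited start that lay far from an annotated one. The E-box CACGTG, each copy of which is also counted as HRE cores, was found at 6 genes (16.2%), beside 9.72%. These were Pfkfb2, Ldha, Slc16a1, Pdk2, Hif1a and Cpt1b. The sites nearest the TSS were at −14 bp for Slc16a3, −20 bp for Pfkfb2, −35 bp for Ldha and −37 bp for Slc2a1. A match describes the letters in these windows and not binding, and no test of these shares was run.

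**Figure D5:**
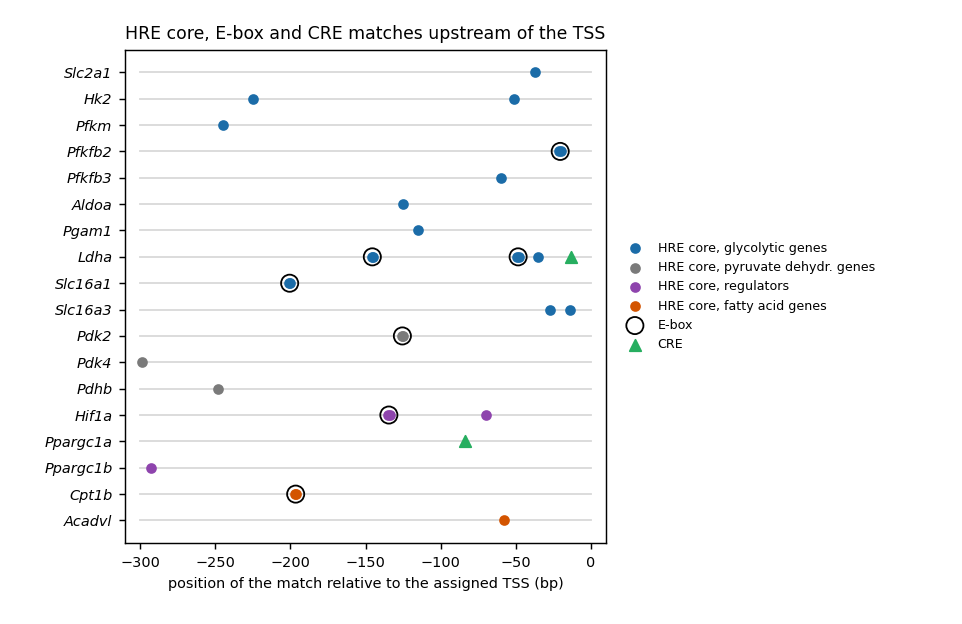
Position in bp relative to the TSS (horizontal axis) of HRE cores (points coloured by group), E-boxes (open circles) and CREs (triangles) in the 300 bp upstream of the 18 genes that hold any of them. Ldha has the most matches, with 3 HRE sites and a CRE.

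General promoter motifs had shares near those of the whole list, with the GC box GGGCGG at 64.9% of the 37 genes beside 67.6% and the CCAAT box (CCAAT) at 43.2% beside 39.4%. The ETS site CCGGAA was found at 16.2% beside 23.4%. The CRE was found at Ldha and Ppargc1a (5.41% beside 3.08%). The NRF1 core was found at 0 of 37 genes beside 8.69%. The ERR site TCAAGGTCA and the DR1 element of PPAR factors were also found at none, but were rare in all windows, at 0.286 and 0.0185%. The GATA site AGATAA was found at Pfkm, Pdk4, Pdhb and Acadvl (10.8% beside 6.27%), and the LIM homeodomain core TAATG at Aldoc and Cpt1a (5.41% beside 15.4%). All motifs were searched on both strands. In the centres of the 23 peaks beyond 10 kb, of 300 bp each, the HRE core was found in 8.7% beside 13.8% of 10848 distal peaks, the GATA site in 13.0% beside 15.8% and the LIM homeodomain core in 13.0% beside 26.3%. Both distal HRE cores lay in the peaks of Slc2a3.

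Of 86 further genes of the same pathways, 71 had a peak and 58 a promoter peak. The counts were 12 of 18 with a peak and 7 with a promoter peak for other glycolytic genes, 13 and 10 of 17 for other pyruvate genes, 27 and 22 of 32 for other fatty acid genes, and 19 and 19 of 19 for other regulators. The other glycolytic genes thus had a peak at 66.7% (43.7 to 83.7%) and a promoter peak at 38.9% (20.3 to 61.4%), beside 62.5 and 50% of coding genes and 96.2 and 88.5% of the 26 glycolytic genes above. For the other fatty acid genes the shares were 84.4% (68.2 to 93.1%) and 68.8% (51.4 to 82%). Both shares were thus higher for the fatty acid genes here, the opposite order to that of the 26 and 10 genes, and the intervals overlapped. At least 3 peaks were assigned to 5.56% of other glycolytic and 12.5% of other fatty acid genes, beside 10.3% of coding genes. Among glycolytic genes, Pgk1, encoding the phosphoglycerate kinase, had a promoter peak of 1183 bp at −122 bp. Of the 15 genes without a peak of their own, 6 had the start covered by a peak of another symbol.

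Among the groups of further genes, only the regulators had a promoter peak at every gene. The pyruvate gate genes and the regulators described earlier also had a promoter peak at every gene. The PPAR genes, encoding fatty acid receptors, had 1 peak for Ppara, 2 for Ppard and 1 for Pparg, and their promoter peaks were 1916, 1197 and 1829 bp wide. The oestrogen related receptors, partners of the Ppargc1 coactivators, had 1 peak for Esrra but 4 each for Esrrb and Esrrg, and the promoter peak of Esrra was 2843 bp wide against 1005 and 920 bp. Nrf1 and Tfam, regulators of mitochondrial genes, had 1 promoter peak each, at 209 and 75 bp. Of the hypoxia factors, Epas1 had 3 peaks and Arnt, the partner of Hif1a, had 1. Myc, which drives glycolytic genes in growing cells, had 2 peaks, the nearer at −188 bp and 2162 bp wide.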

How the data were processed

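Per the study's methods, the authors mapped reads to mm9 with Bowtie2, removed improper and secondary alignments with SAMtools and duplicates with Picard 1.136, and called peaks in each replicate with MACS, using a fixed shift in place of a fragment model. Blacklisted regions were dropped, and peaks overlapping a peak of the other replicate were kept with bedtools 2.15, so each interval has the coordinates found in 1 replicate. The methods give no other correction for where Tn5 cuts, which could move peak edges by a few bases. The deposited list used here holds coordinates and no other score, count or signal, namely the start and end of each peak, the signed distance of its midpoint from a TSS, an accession and a symbol. Nearest TSS annotation is described for the ChIP-Seq peaks, and for this list it is not given in the sources used here.

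The 26429 lines were reduced to 26232 distinct intervals, of which 196 stood on more than 1 line. Coordinates are 1-based on mm9, with gene models from GENCODE vM1 on that assembly and older symbols updated through RefSeq synonyms. Protein coding genes came from a RefSeq table, in which 99.8% of the peaks were matched to a gene. Of the 69 peaks, 57 had a deposited TSS within 50 bp of an annotated start. Genes without a peak counted as 0. Python 3.11.15, pandas 2.3.3, NumPy 2.4.6 and SciPy 1.17.1 were used, and the counting was tested on simulated data. Intervals of medians are order statistics.

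The 43 genes, the other lists and the settings were chosen with earlier results of these data known. All 43 genes are accounted for. Every peak position is given for genes with at least 3 peaks or without a promoter peak, the nearest peak for genes without any, and the widest and narrowest promoter peaks of both groups. Other pathway genes named are Pgk1 and 11 regulators.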

Additional observations from a re-analysis of the deposited data

How the results depend on the processing

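The 21 results were computed under 11 alternatives in 123 combinations, of which 111 kept their direction or stayed within the interval or 1.5 times the value, 8 moved and 4 reversed. Of 41 combinations for a difference between glycolytic and fatty acid genes, 36 kept its direction, though not always its size. The difference in median distance, 1645 bp, was 678 bp with every line counted, 654.5 bp with wider groups, 428 bp with enzymes of the chains only and 55 bp with peaks wider than the list median, and that in promoter peaks, 18.5 percentage points, was 6.92 with a limit of 500 bp. The difference in promoter peak width, 145.5 bp, was 87 bp at limits of 500 bp and 5 kb, and that in peaks per gene, 0.846, was 0.531 for peaks within 10 kb of any annotated TSS. Counting only peaks wider than the list median of 1081 bp gave 1.12 peaks per glycolytic gene and 0.5 per fatty acid gene, 80.8% of glycolytic genes with a peak and a glycolytic median width of 1577 bp, by construction fewer and wider peaks. With the median over genes, the glycolytic value was 1 peak and the difference between the groups 0. Counting peaks within 10 kb of any annotated TSS whatever their symbol gave 100% of glycolytic genes with a peak, and allowing any annotated TSS gave 96.2% with a covered start. The difference in median width of all peaks was −14.5 bp (glycolytic minus fatty acid) and reversed to 14 bp with every line counted, 72 bp with peaks wider than the list median and 173 bp with wider groups of 31 and 12 genes. The difference in covered starts, 4.62 percentage points, reversed to −4.17 with 18 and 8 enzymes of the chains only. For each other change the cause was not tested. Neither replicate could be left out, and depth sets no stated limit because it is unknown. No paired analysis was possible because the samples form 1 group with a joint list.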
